A study of Mus musculus with 357 samples.

Results

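The 8 genes described here encode transcription factors and cofactors of the SCL complex: Tal1 (also called Scl), Lyl1, Lmo2, Ldb1, Gata2, Cbfa2t3, Tcf3 and Runx1. They were taken by gene symbol, with no rule on measured values, from the 96 assays of a single-cell quantitative PCR panel. Earlier results of these data were known when the 8 genes were chosen. All 8 had an assay, and each was read in all 357 mouse hematopoietic stem cells (HSCs). The donors were Col1a1-tetO-H2B-mCherry mice, whose bone marrow cells carried an inducible fluorescent histone that division dilutes. Both groups carried this transgene, and both were sorted as single Lin-Sca1+c-kit+CD48-CD150+ cells. The first group was isolated 5 weeks after induction and filled plates of 91 cells (plate 1) and 83 cells (plate 2). The second was isolated 2 weeks after induction and filled its own 2 plates with 90 (plate 1) and 93 cells (plate 2). The labels give no age of the mice, no driver of the tet-regulated transgene and no number of animals.

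The SCL complex is a core regulator of blood stem cells. In it a tissue-restricted basic helix-loop-helix protein, Tal1 or Lyl1, pairs with a ubiquitous E protein such as the products of Tcf3 and contacts E-box DNA. Lmo2 bridges this pair to Ldb1, an adaptor that can join with itself and so hold distant sites together, and to a GATA factor, which in stem cells is mainly Gata2. Cbfa2t3 (Eto2) is a corepressor recruited to the complex, and Runx1 binds many of the same enhancers together with Erg and Fli1.

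A product was called detected at a threshold cycle (Ct) of 25 or below. The Ct is the PCR cycle at which fluorescence passes a threshold, so a lower Ct means more template. Of all 34272 reactions, 40.8% gave no product. Cells of the 5-week plates had 58.8 ± 5.71 of the 96 assays detected (SD over cells), against 54.6 ± 5.36 (SD over cells) on the 2-week plates. The mean Ct of 11 reference assays, each found in 95% or more of every plate's cells and none of them a member, was 12.98 ± 0.67 in 5-week cells against 13.43 ± 0.57 in 2-week cells, a gap of -0.45 cycles. Both plates of a chase time held that time alone, so plate and chase time cannot be told apart. With no animals named, a chase time stands for 1 sample and nothing was tested between the times. Intervals are Clopper-Pearson 95% intervals and reflect counting error only. Of the genes that define the sort, Kit gave a product in 99.4% of 5-week cells against 98.9% of 2-week cells, and Cd48 in 3 and 2 cells. The CD150 gene Slamf1 did so in 55.7 and 72.1% and the Sca1 gene Ly6a in 72.99 and 91.3%. Among markers of other blood cells, Ebf1 (B cells) was found in 0 of 357 cells, which at an upper limit of 3 counts is a share of up to 0.840%, and Csf1r (monocytes and macrophages) in 4 cells of the 5-week and 27 of the 2-week plates. The erythroid genes Klf1 and Epor were found in 13 and 52 of the 5-week cells against 9 and 39 of the 2-week cells, and the megakaryocyte genes Itga2b and vwf in 89 and 89 against 73 and 63. The part of these cells in the results was not tested, and none of the 5 markers listed for endothelium and stroma was among the assays used here. TEK, an angiopoietin receptor gene that HSCs and endothelium share, was found in 64.9% of 5-week and 46.99% of 2-week cells.

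The first comparison asked in how many cells each member was detected after 5 weeks of chase and after 2 weeks. RNA of the members was found in most HSCs of both times. Lmo2 was detected in all cells. Over all plates together the least widely detected member was Tal1, which was lowest on plate 2 of each time. On 5-week plate 1 the lowest was Lyl1 (96.7%), and on 2-week plate 1 it was Cbfa2t3 (88.9%, against 90% for Tal1). Over both 5-week plates Cbfa2t3 (97.1%) was just below Tal1 (97.7%). For 6 of the 8 members the share of cells was higher on both 5-week plates than on each 2-week plate. Tal1 had the widest gap over all plates, but not without 2-week plate 2.

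Tal1, the basic helix-loop-helix factor that gives the complex its name, was detected in 100 and 95.2% of the cells of the 5-week plates, against 90 and 74.2% for the 2-week plates. Pooled by time, these shares were 97.7% (interval 94.2 to 99.4%) for 5-week cells and 81.97% (75.6 to 87.2%) for 2-week cells, 15.7 percentage points apart. It lacked a product in 0 and 4 cells of the 5-week plates and in 9 and 24 cells of the 2-week plates, so 2-week plate 2 held most of the cells without it. Without that plate the difference was 7.70 points, below the 8.85 of Runx1 and the 8.24 of Cbfa2t3 over the same plates.

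Lyl1, the close relative of Tal1, was detected in 96.7 and 98.8% of the cells of the 5-week plates, against 96.7 and 94.6% for the 2-week plates. The lower 5-week plate and the higher 2-week plate lacked it in 3 cells each, and their shares differed only because they held 91 and 90 cells. The difference of 2.07 points ranged between 1.03 and 3.17 when 1 plate was left out, with the lowest value without 2-week plate 2 and the highest without 5-week plate 1. It was 1.07 without 5-week plate 2.

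Tcf3, the E protein partner, was detected in all cells of both 5-week plates, against 96.7 and 94.6% for the 2-week plates, a difference of 4.37 points. Its product was absent from 3 and 5 cells of the 2-week plates.

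The bridging genes had almost no cells without a product. Lmo2 was detected in all 357 cells, so at the same 3-count limit up to 0.840% of cells could be without it. Ldb1 was undetected in 1 cell, on 2-week plate 2.

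Gata2, the GATA factor of the complex in stem cells, was detected in every 5-week cell (interval 97.9 to 100%) and in 97.3% of 2-week cells (93.7 to 99.1%). It was absent from 3 cells of 2-week plate 1 and 2 cells of 2-week plate 2.

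Cbfa2t3, the corepressor, was detected in 97.8 and 96.4% of the cells of the 5-week plates, against 88.9 and 93.5% for the 2-week plates. Its pooled shares were 97.1% (93.4 to 99.1%) for 5-week cells and 91.3% (86.2 to 94.9%) for 2-week cells, a gap of 5.87 points that was 3.58 without 2-week plate 1.

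Runx1, the runt-domain factor, was detected in 100 and 97.6% of the cells of the 5-week plates, against 90 and 92.5% for the 2-week plates, a difference of 7.59 points. It lacked a product in 0 and 2 cells of the 5-week plates and in 9 and 7 cells of the 2-week plates.

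**Figure D1:**
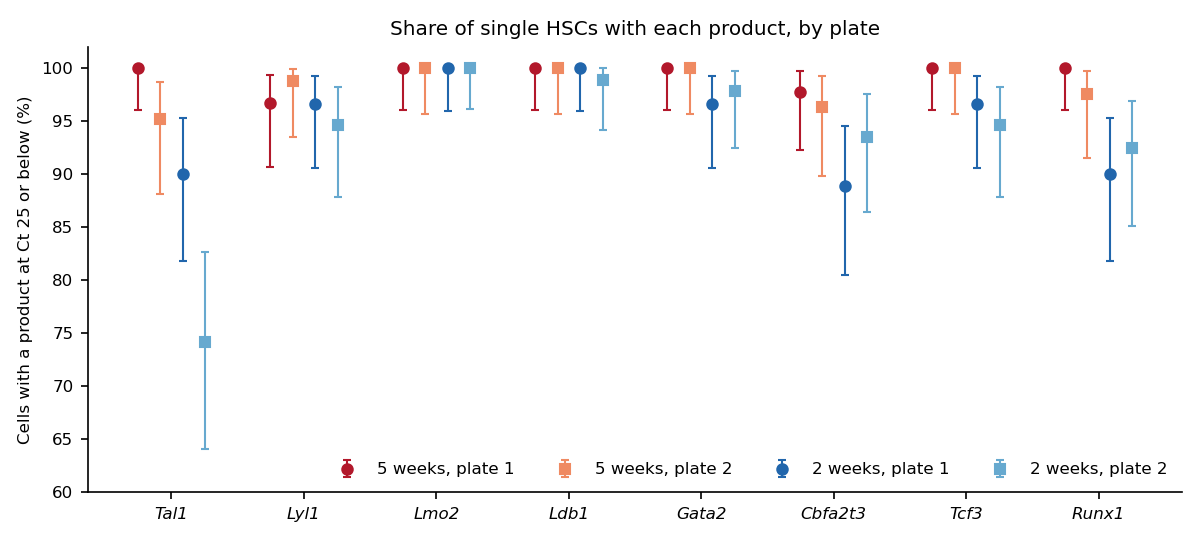
Share of cells (percent, axis cut at 60) with a product at Ct 25 or below for each of the 8 genes on each plate, 5-week plates left of 2-week plates, with exact 95% intervals. Tal1 lies lowest, at 74.2% on 2-week plate 2, while Lmo2 is at 100% on all 4 plates.

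The count has to be read against the panel. Both 5-week plates lay above both 2-week plates for 6 of the 8 members, and for 41 of all 96 assays, or 42.7%. Both lay below for 0 members and for 7 of the 96 assays, or 7.29%. The members are all widely detected genes. Among the 35 assays with a product in at least 80% of all cells, a limit chosen after the values were seen, 13 were higher on both 5-week plates, or 37.1%. The median difference was 3.55 points over the 8 members, 2.85 over all 96 assays and 0.92 over the 35 widely detected ones.

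For most members the cells without a product had later reference products. In 5-week cells the mean reference Ct was 13.69 in the 4 cells without Tal1 and 12.96 in those with it, while for Cbfa2t3 it was 12.87 in the 5 cells without and 12.98 in those with it. In 2-week cells it was 13.71 without Tal1 and 13.37 with it, 13.79 without Runx1 and 13.39 with it, and 13.65 without Cbfa2t3 and 13.41 with it. With the reference Ct as a covariate in a logistic fit between each 5-week and each 2-week plate, the mean difference was 12.4 points for Tal1, 5.92 for Runx1, 4.85 for Cbfa2t3, 3.52 for Tcf3 and 2.69 for Gata2, each above 0 in 4 of 4 pairs of plates. For Lyl1 it was -0.02 points and above 0 in 2 of 4 pairs. The 4 pairs reuse the same 4 plates and are not independent. Tal1 differed by 20.3 and 17.8 points against 2-week plate 2, but by 7.95 and 3.47 against 2-week plate 1. Against 2-week plate 1 Runx1 differed by 7.89 and 6.05. Tcf3 and Gata2 were detected in every cell of both 5-week plates, which left their fits little room below 0. Their signs therefore cannot show whether the gap outlasts the adjustment. Tal1 and Runx1 were detected in every cell of the larger 5-week plate only. The products of Cbfa2t3 and Runx1 were never later than Ct 18, whereas Tal1 had 10 later ones in 5-week cells and 15 in 2-week cells.

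The second comparison asked how much product the detecting cells held. The level subtracts a gene's Ct from the mean reference Ct of the same cell, on a log2 scale on which 1 unit is about 1 doubling. It was higher on both 5-week plates than on both 2-week plates for 6 members, lower for 1 (Lmo2) and overlapping for 1 (Cbfa2t3). Over detecting cells Tcf3 had the largest gap and Ldb1 the next, although without 5-week plate 1 Lyl1 (0.56) was above Ldb1 (0.45). The direction for Lmo2 turned with the centring, as given below.

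The deposited Ct of Tcf3 spanned 12.4 to 20.1 with a median of 14.2 in 5-week cells, against 13.1 to 23.4 with a median of 15.7 in 2-week cells. Its mean level was -1.57 and -1.29 on the 5-week plates and -2.15 and -2.40 on the 2-week plates, a difference of 0.84 log2 units that ranged between 0.58 and 1.11 over the 4 comparisons of a 5-week with a 2-week plate. The plate means did not overlap, although the cells of all plates did.

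Ldb1 had Ct values of 11.6 to 20.3 in 5-week cells (median 13.1) and of 12.6 to 16.6 in 2-week cells (median 14.3). Its level was -0.11 and -0.31 on the 5-week plates and -0.79 and -0.73 on the 2-week plates, a difference of 0.56 (0.43 to 0.68 between plates). The other bridging gene differed the other way under the same centring. Lmo2 had Ct values of 9.84 to 15.0 in 5-week cells (median 11.2) and of 9.59 to 13.4 in 2-week cells (median 11.5). Its level was 1.68 and 1.72 on the 5-week plates and 1.84 and 1.96 on the 2-week plates, a difference of -0.20 (-0.27 to -0.11) that was -0.12 without 2-week plate 2 and -0.30 without 2-week plate 1.

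Of the helix-loop-helix genes, Lyl1 had Ct values of 12.84 to 19.7 in 5-week cells (median 14.8) and of 13.5 to 20.8 in 2-week cells (median 15.7). Its level was -2.11 and -1.94 on the 5-week plates and -2.54 and -2.46 on the 2-week plates, a difference of 0.47 (0.35 to 0.60). Tal1 had Ct values of 13.73 to 20.1 in 5-week cells (median 15.96) and of 14.05 to 20.7 in 2-week cells (median 16.7). Its level was -3.15 and -3.04 on the 5-week plates and -3.24 and -3.48 on the 2-week plates. The difference of 0.25 ranged between 0.09 and 0.44 over plate comparisons, was 0.15 without 2-week plate 2, and was small beside the SD of 0.96 to 1.13 over the cells of a plate.

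Gata2 had Ct values of 11.4 to 17.8 in 5-week cells (median 14.2) and of 11.8 to 17.3 in 2-week cells (median 14.9). Its level was -1.20 and -1.22 on the 5-week plates and -1.44 and -1.51 on the 2-week plates, a difference of 0.26 (0.22 to 0.31). Runx1 had Ct values of 11.6 to 14.3 in 5-week cells (median 13.01) and of 12.2 to 15.3 in 2-week cells (median 13.6). The level of Runx1 was 0.03 and -0.02 on the 5-week plates and -0.47 and -0.11 on the 2-week plates. Its difference of 0.29 rested on 2-week plate 1: it was 0.08 without that plate and 0.50 without 2-week plate 2. Cbfa2t3 had Ct values of 11.8 to 15.4 in 5-week cells (median 13.6) and of 12.66 to 15.9 in 2-week cells (median 14.2). Its level overlapped between the times, at -0.71 and -0.65 on the 5-week plates and -0.91 and -0.69 on the 2-week plates. These levels cover detecting cells alone. With undetected reactions set at the Ct limit, so that absence counts too, the difference was 1.49 for Tal1, 1.23 for Tcf3 and 1.13 for Runx1. It was 0.71 for Cbfa2t3, 0.65 for Lyl1, 0.61 for Ldb1, 0.53 for Gata2 and -0.20 for Lmo2. In that setting 7 members were higher with their plates apart, and the median over the 80 assays with a level was 0.33. How many of those assays were higher was not counted. The sizes depend on the limit, which for Runx1 lies well past its latest product at Ct 15.3.

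**Figure D2:**
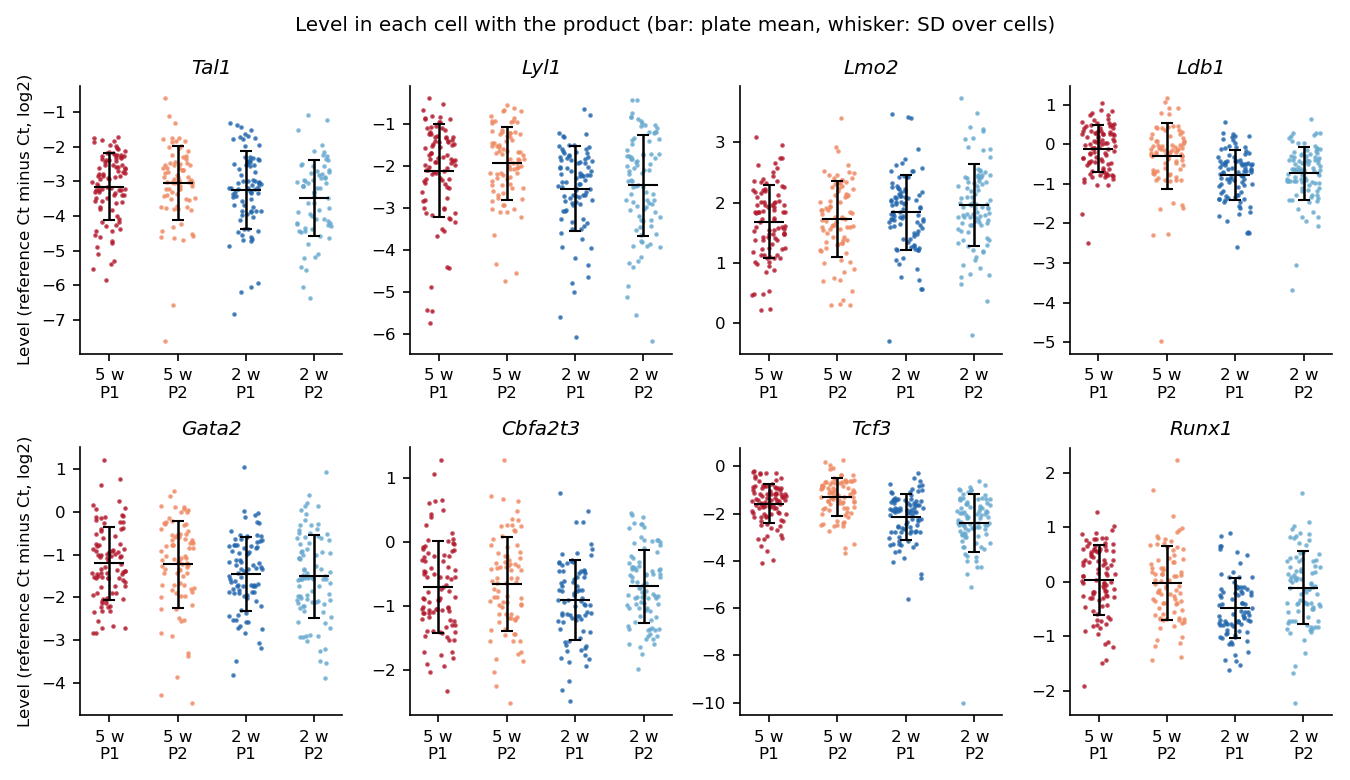
Level of each gene (reference Ct minus Ct, log2 scale) in every cell with the product, by plate, 5-week plates (5 w) left of 2-week plates (2 w). The bar is the plate mean and the whisker the SD over cells, and the clouds of single cells overlap for each gene even where the plate means are apart, as for Tcf3 and Ldb1.

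Across the 80 assays whose product was found in 10 or more cells of each plate, 28 were higher on both 5-week plates, or 35%, and 30 were lower, or 37.5%. The members' 6 higher and 1 lower stand beside these shares. The median level difference was 0.28 over the 8 members and -0.09 over the 80 assays. Without centring the median over the 80 assays was 0.37, and with Actb and Gapdh as the only references it was 0.25. Lmo2 differed by 0.26 and 0.15 under those settings, so its difference changed sign but stayed below the median of the assays. Taken relative to the median assay of each plate, Tcf3 differed by 1.02, Ldb1 by 0.74, Lyl1 by 0.65, Runx1 by 0.48, Gata2 by 0.45, Tal1 by 0.44, Cbfa2t3 by 0.30 and Lmo2 by -0.01. The other 7 members were above 0 under each of the 5 centrings shown in the plot of centrings.

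**Figure D3:**
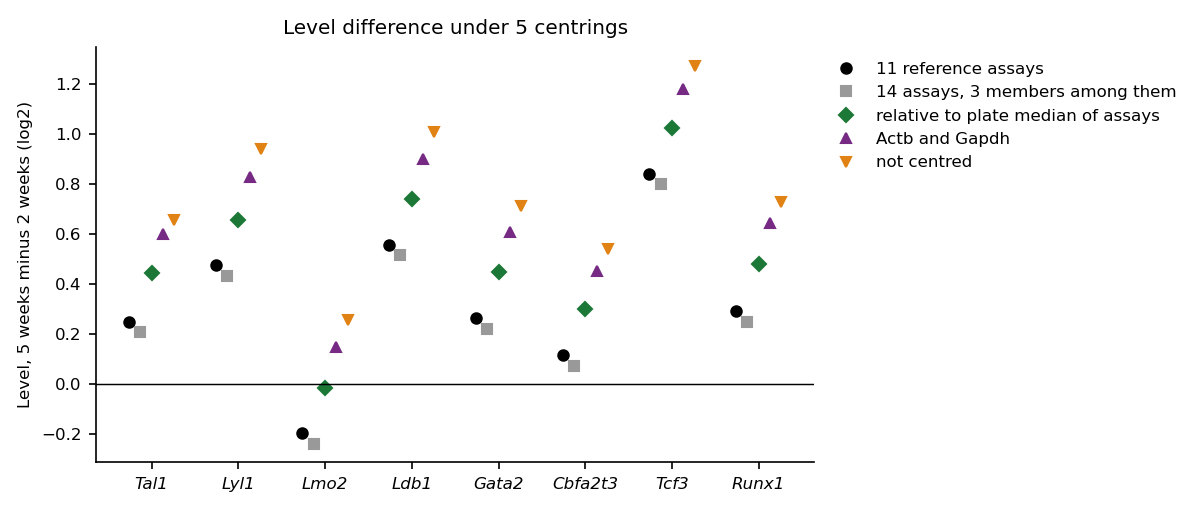
Level difference of each gene (5 weeks minus 2 weeks, log2) under 5 centrings: the 11 reference assays, the same with 3 of the members added, relative to the plate median of assays, Actb and Gapdh only, and none. Tcf3 lies highest under each of them, and Lmo2 runs between -0.24 and 0.26, with its sign depending on the centring.

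The members also differed in the spread of their measured level from cell to cell. The within-plate SD of the level, taken as the square root of the mean plate variance, was 0.64 for Runx1 and Lmo2, 0.67 for Cbfa2t3 and 0.69 for Ldb1. It was 0.93 for Gata2, 0.98 for Tcf3 and 1.06 for both Tal1 and Lyl1. All 8 lay below the median of 1.19 over the 80 assays, which ranged between 0.51 and 3.25. The SD covers detecting cells alone, and the members are among the most widely detected assays. Tal1 and Lyl1, with the largest SD, also had the latest median Ct of the members at both times. The SD was not adjusted for Ct or assay efficiency, so technical and biological spread cannot be told apart.

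The third question was whether the partners were found in the same cells. Most 5-week HSCs held detectable RNA of the whole complex, and fewer 2-week HSCs did. All 8 products were found in 93.1% of 5-week cells (interval 88.3 to 96.4%) and 64.5% of 2-week cells (57.1 to 71.4%). By plate this was 94.5 and 91.6% for 5-week cells and 70 and 59.1% for 2-week cells, with no overlap. At least 1 product was lacking in 12 of the 5-week and 65 of the 2-week cells, and 2 or more were lacking in 2 and 17 of them. The gap of 28.6 points in complete cells was 19.3 points among cells within a 1-cycle window of reference Ct, where the mean reference Ct was 13.17 in 5-week cells and 13.26 in 2-week cells.

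Most incomplete cells lacked a single member: 10 of the 12 and 48 of the 65. The 5 genes of the DNA-binding core (Tal1, Tcf3, Lmo2, Ldb1 and Gata2) were found together in 97.7% of 5-week cells and 75.96% of 2-week cells (69.1 to 81.95%). The plates gave 100 and 95.2% for 5-week cells and 83.3 and 68.8% for 2-week cells. The gap of 21.7 points was 14.4 without 2-week plate 2. When Lyl1 was allowed in the place of Tal1, the core was complete in 99.4% of 5-week cells and 91.3% of 2-week cells. Of the 37 cells without Tal1, 34 had Lyl1, and of the 12 cells without Lyl1, 9 had Tal1. Cells with neither numbered 1 on the 5-week and 2 on the 2-week plates.

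**Figure D4:**
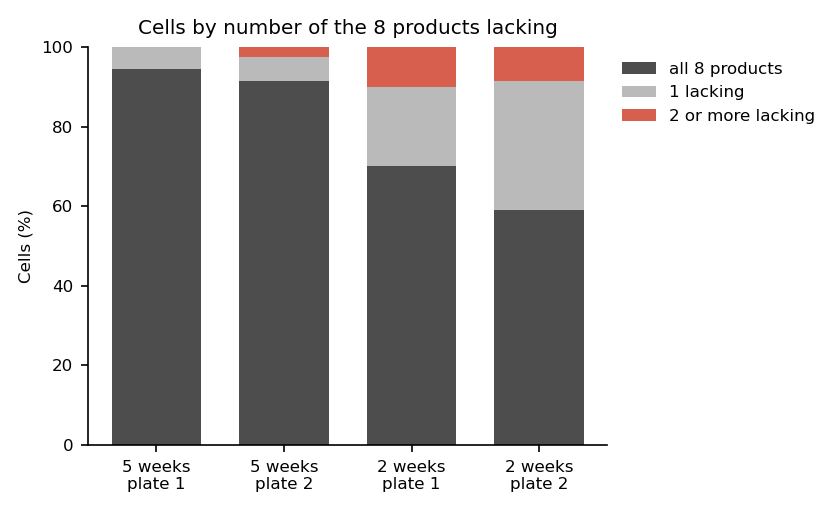
Share of cells on each plate (percent) with all 8 products, with 1 lacking and with 2 or more lacking, 5-week plates left of 2-week plates. All 8 were present in 94.5 and 91.6% of the cells of the 5-week plates, against 70 and 59.1% for the 2-week plates.

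The share of complete cells was also set against the separate shares multiplied together. The product of the 8 shares was 94.6 and 88.5% on the 5-week plates and 65.04 and 55.6% on the 2-week plates, below the observed share on each plate but 5-week plate 1. For the core the product was 97.7% for 5-week cells and 75.8% for 2-week cells, beside the observed 97.7 and 75.96%. In 5-week cells each core gene but Tal1 was detected in every cell. There both values equal the Tal1 share by arithmetic and carry nothing on co-detection.

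Joint absences were few. Of the 28 pairs of members, 17 had 0 cells without both, 6 had 1 or 2 such cells and 5 had 3 or more. Tal1 and Runx1 were both absent from 7 cells, against 2.80 from the product of the shares on each plate. Cbfa2t3 and Runx1 were both absent from 4 cells against 1.52, and Tcf3 and Runx1 from 3 against 0.68. In all, 9 of the 28 pairs passed the product by 1 cell or more and 0 fell short by as much. Few could fall short, since most products were under 1 cell. Joint absence was not counted over the pairs of other assays. Incomplete cells had later reference products. In 5-week cells with any member missing the reference Ct was 13.44, against 12.94 in complete cells, and 47.6 against 51.1 of the other assays were detected, although on 5-week plate 1 both kinds had 51.8. In 2-week cells it was 13.67 against 13.30, with 45.4 against 47.97 other assays. The 5-week cell with 3 members missing had a reference Ct of 15.3 and 27 assays detected. No phi coefficient of co-detection is given, since it was set for genes with a share between 10 and 90% on each plate, and no member had one.

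The levels of the other members were set side by side in 2-week cells without and with Tal1. Plate 1 had 9 cells without it and 81 with it, and plate 2 had 24 and 69. Their mean reference Ct, from which the levels are taken, was 13.74 without Tal1 and 13.43 with it on plate 1, and 13.70 and 13.29 on plate 2. Lmo2 was at 2.06 ± 0.62 without Tal1 and 1.81 ± 0.62 with it on plate 1, and at 2.09 ± 0.60 and 1.91 ± 0.71 on plate 2 (SD over cells). Lyl1, the paralog, differed by 0.36 and 0.11 on the 2 plates, and Cbfa2t3 by 0.46 and 0.18, without Tal1 minus with it. Gata2 differed by -0.08 and -0.39, Tcf3 by 0.14 and 0.61, and Ldb1 by 0.03 and 0.06. Runx1 differed by -0.33 and 0.04 and so had opposite signs on the plates. Each of these differences was smaller than the SD of the level over the cells without Tal1.

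The fourth question was whether the partners' levels varied together from cell to cell. Correlations were taken within each plate over cells with both products, and are given as a description without a test. The points of a plate share a chip and the reference mean that is subtracted from both genes. Correlation among the members was weak. Of the 28 pairs, 1 had a Spearman's rho of 0.2 or more on each of the 4 plates, or 3.57%, against 70 of 2115 pairs of assays on the panel, or 3.31%.

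That pair was the corepressor gene Cbfa2t3 with Runx1. Its rho was 0.40 and 0.48 on the 5-week plates and 0.21 and 0.44 on the 2-week plates, over 89, 78, 74 and 81 cells, and its Pearson's r ranged between 0.23 and 0.54. Given the reference Ct of the cell, the rank correlation of the 2 deposited Ct values lay between -0.13 and 0.27 and so had no fixed sign. Leaving out 5-week plate 1, 5-week plate 2, 2-week plate 1 or 2-week plate 2 gave 2, 1, 2 and 3 such pairs of members.

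The correlation was above 0 on each plate for 15 of the 28 pairs (53.6%), against 652 of 2115 (30.8%), and below 0 on each plate for 0 pairs. The panel pairs were not matched to the members in detection, and needed only 20 cells with both products on each plate. Whether the larger share among the members follows from their wider detection was not tested. Tal1 and its dimer partner Tcf3 had rho of 0.07 and -0.10 on the 5-week plates and 0.09 and 0.12 on the 2-week plates. Tal1 and Lmo2 had -0.09 and 0.24 on the 5-week plates and 0.22 and 0.12 on the 2-week plates. Tal1 and Gata2 had -0.05 and 0.19 at 5 weeks and 0.34 and 0.09 at 2 weeks, so each of these 3 pairs held both signs. Tal1 and its paralog Lyl1 ranged between 0.03 and 0.26, with the highest value on 2-week plate 2. Lmo2 and Ldb1, whose proteins bind each other directly, had 0.17 and 0.20 at 5 weeks and 0.33 and 0.12 at 2 weeks. Tal1 and Ldb1 spread most, between -0.17 on 5-week plate 1 and 0.44 on 2-week plate 2.

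**Figure D5:**
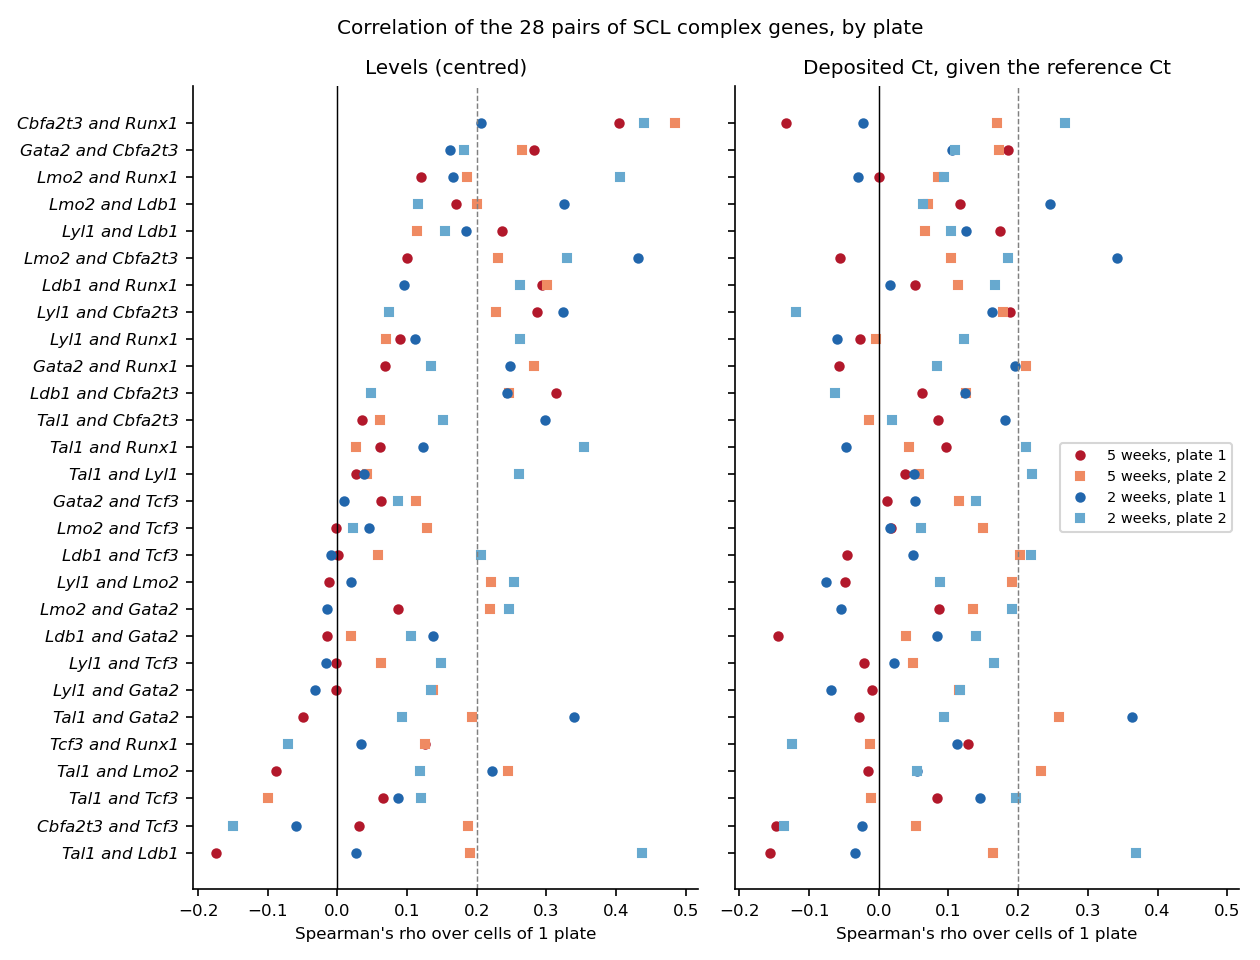
Spearman's rho over the cells of each plate for the 28 pairs, from levels (left) and from the deposited Ct given the reference Ct of the cell (right), with a dashed line at 0.2. Cbfa2t3 and Runx1 at the top of the left panel pass the line on all 4 plates, and on the right no pair does.

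In the deposited Ct, without centring, 7 of the 28 pairs reached 0.2 on each plate (25%), against 193 of 2115 pairs of assays, or 9.13%. The panel pairs were again not matched to the members in detection. The 7 member pairs were Lmo2 with Ldb1 and with Tcf3, Ldb1 with Gata2, Tcf3 and Runx1, and Gata2 with Cbfa2t3 and with Tcf3. Ldb1 and Tcf3 had 0.36 and 0.38 on the 5-week plates and 0.31 and 0.41 on the 2-week plates. These members also followed the reference Ct itself: rho with it ranged over the plates between 0.51 and 0.66 for Ldb1, between 0.34 and 0.68 for Lmo2, between 0.44 and 0.59 for Tcf3 and between 0.32 and 0.52 for Gata2. It was between 0.20 and 0.52 for Runx1, between 0.22 and 0.44 for Cbfa2t3, between 0.08 and 0.58 for Tal1 and between 0.06 and 0.43 for Lyl1. Given the reference Ct, 0 pairs reached 0.2 on each plate, 7 were above 0 on each and 21 held both signs. The same counts over the pairs of assays on the panel are not given, so these cannot be set against the panel.

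For each member the 2 assays outside the complex with the highest lowest-plate rho of the level were sought, out of 60 or 61 assays compared. Notch1, a receptor that was detected in 186 cells, was first for Lyl1 (0.22 to 0.43), Cbfa2t3 (0.33 to 0.60) and Runx1 (0.35 to 0.59). Given the reference Ct, the Notch1 correlation was 0.15 to 0.42 with Lyl1, 0.03 to 0.41 with Cbfa2t3 and 0.01 to 0.37 with Runx1. Sfpi, as the file names an assay, was next for Lyl1 (0.20 to 0.32), Nfat5 for Cbfa2t3 (0.28 to 0.42) and Slamf1 for Runx1 (0.26 to 0.55). Slamf1 with Runx1 was at 0.22 to 0.44 given the reference Ct. Lmo2 was nearest to mettl7a1 (0.24 to 0.56) and Cbx7 (0.22 to 0.39), Gata2 to the D-type cyclin gene Ccnd3 (0.19 to 0.32) and Fli1 (0.14 to 0.42), and Slamf1 was listed for Ldb1 (0.17 to 0.28). Tal1 was nearest to Ezh1, a Polycomb methyltransferase (0.14 to 0.26). Tcf3 was nearest to CDK4 (0.16 to 0.36) and Gapdh (0.15 to 0.16), both of them reference assays.

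Other factors known to work with the complex were read from a list of 22, of which 9 were on the panel: Erg, Fli1, Gata1, Zfpm1, Gfi1, Gfi1b, Sfpi, Nfe2 and Klf1. In share of cells 6 of the 9 were higher on both 5-week plates, 2 were lower (Erg and Gfi1) and 1 overlapped, with a median of 2.70 points. In level 4 of the 7 measured were higher, 1 lower and 2 overlapping, with a median of 0.35. Of these, Nfe2 and Zfpm1 are reference assays, so their own levels enter the centring, as do those of Kit, Nfe2 and Meis1 among the targets. The ETS factor gene Fli1 was found in 97.7% of 5-week cells and 93.99% of 2-week cells, with a level difference of 0.61 (0.52 to 0.69). Erg, the related ETS factor gene, was found in 95.98 and 100% and its level overlapped, at a difference of 0.15. Gfi1b, which encodes a zinc finger repressor, was found in 74.7% of 5-week cells and 60.1% of 2-week cells. Of 12 measured genes from a list of 14 known targets, 6 were higher, 2 lower and 4 overlapping in share, with a median of 1.82 points, and 5, 2 and 3 of the 10 with a level were so in level, with a median of 0.17. Both lists share members with each other. Their medians stand beside 2.85 points over all 96 assays and -0.09 over the 80 with a level. Of the 96 assays, 42.7% were higher in share and 7.29% lower. Of the 80 with a level, 35% were higher and 37.5% lower.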

How the data were processed

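Single HSCs were lysed in plate wells, reverse transcribed, pre-amplified for 22 cycles with the 96 assays in multiplex and read with EvaGreen for 30 PCR cycles on a microfluidic chip, per the labels' protocols. The authors deposited Ct values that were not normalized, with 999 for no product. The sources used here name neither the software nor the thresholds behind the Ct. EvaGreen stains all double-stranded DNA, and a late signal may be unspecific. Wells without a cell were not analysed here.

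Cells were grouped by chase time and plate from their titles. The labels name no animal, so the plates, which may be technical repeats, were the only repeated unit. A gene's plates were called apart when its 5-week plates both exceeded, or both fell short of, its 2-week plates. Wells with under 20% of assays detected would have been left out, and 0 were. No 2 cells had identical values. The deposited Ct ranged between 8.56 and 27.6, and none of the 60 values past 25 belonged to the 8 genes. The reference assays were Actb, Ccnd2, CDK4, Etv6, Gapdh, Hlf, Kit, Meis1, Nfe2, Trp53 and Zfpm1. Level needed 10 detecting cells per plate, and correlations needed 20 cells with both products. Levels are not compared between genes, since assays differ in efficiency. The logistic fit with the reference Ct used Firth's correction. On simulated plates only the share differences, the uncentred level differences and Pearson's r were tested. The centring, the rank and partial correlations and the logistic fit were not. All 8 symbols matched the RefSeq mouse annotation, and no build or coordinates are given.

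The members, lists and settings were chosen with earlier results of these data known. The named genes were the 8 members, the 2 nearest assays of each by the lowest rho over plates, and partners and markers from the lists. Not all assays taken by that rule are reported here. Alternatives were other Ct limits, centrings, well filters, undetected reactions at the Ct limit, medians over cells, Pearson and partial correlations, each plate left out, the reference Ct as covariate, and cells of like reference Ct. Software was pandas 2.3.3, scipy 1.17.1 and numpy 2.4.6 under Python 3.11.15.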

Additional observations from a re-analysis of the deposited data

How the results depend on the processing

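The count of members detected in more cells at 5 weeks, plates apart, stayed between 5 and 7 under the alternatives run, and 0 members were detected in fewer. With the reference Ct as covariate it was 5 of the 6 members fitted in every pair of plates. Tcf3 and Gata2, whose fits had little room below 0, were among those 5. The count over all assays is given for the main setting only, so the alternatives cannot be set against the panel. The difference in cells with all 8 products was 28.6 points, and 19.3 among cells within a 1-cycle window of reference Ct, an alternative chosen after the data were seen. Lyl1 detection turned to -0.018 points with the reference Ct as covariate. The count of members with a lower level, 1 by the centring used, was 0 without centring, 0 relative to the plate median, 0 with Actb and Gapdh, 0 in the window, and 1 to 2 with a plate left out. The count was 2 without 2-week plate 1, where the Cbfa2t3 level turned to -0.03. Lmo2 turned to 0.26 without centring and 0.15 with Actb and Gapdh. The pairs of members at 0.2 or more on each plate numbered 1 by level, 7 by deposited Ct, 0 given the reference Ct, 12 with Actb and Gapdh, 0 with undetected reactions set at the limit, and 1 to 3 with a plate left out. The causes of these changes were not tested, and shares over the panel's pairs are given only by level and by deposited Ct. Of 79 detection differences of single members under the alternatives, 65 were above 0, 12 were 0 and 2 were below 0. Of their level differences 92 were above 0 and 12 below. These values re-read the same 8 genes on the same plates, so they are not independent and add no support. Some settings also raised the panel, whose median level difference was 0.37 without centring. Signs were not counted over the other assays. The phi coefficients were not computed, since no member met the range of shares set for them. With undetected reactions at the limit the Tal1 level difference was 1.49, against 0.25 over detecting cells. The median over the 80 assays was 0.33 in that setting, against -0.09 over detecting cells. No paired analysis was possible because no test was made and plate numbers do not tie plates of different chase times. With 1 sample per chase time, plates of 83 to 93 cells limit shares to intervals of several points.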
